A study of Mus musculus with 12 samples.

Results

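Ubiquitin and proteasome genes were followed in mouse liver after deletion of Apc, of Myc, or of both. The members were the probe sets that the authors' 3 looser lists pair with a single symbol beginning with Psm, Usp, Ube, Fbx, Trim, Rnf or Cul, the name stems of proteasome subunits, ubiquitin proteases, conjugation enzymes and several classes of ubiquitin ligase. Ube2c, Rnf43 and Trim24 were left out by the rule. This gave 26 probe sets for 23 genes, out of 32176 probe sets with deposited values and 2517 that the lists pair with 1 symbol. By family there were 6 Usp genes on 8 probe sets, 4 Ube, 4 Fbx, 3 Rnf, 3 Trim on 4 probe sets, 2 Psm and 1 Cul gene. The stem misleads for Usp6nl, which is a GTPase-activating protein for Rab proteins and no protease. The file symbols Ube1l2 and Trim30 are given here under their current names, Uba6 and Trim30a.

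Ubiquitin is joined to proteins by a cascade. An activating enzyme (E1) charges it, a conjugating enzyme (E2) carries it, and a ligase (E3) chooses the protein to be marked, while some factors lengthen the chain (E4). Many ligases are built on a cullin scaffold whose F-box subunit binds the target, and others, such as the RING and TRIM proteins, work through a RING domain of their own. Chains of certain linkages send the protein to the proteasome, a core protease capped by a regulatory particle that binds and unfolds the target, and deubiquitinating enzymes such as the USP family remove the marks. The pathway has a direct tie to the deleted gene, since the APC protein is part of the complex through which beta-catenin is phosphorylated, ubiquitinated and degraded. In the liver, Apc loss is known to raise beta-catenin signalling, and Myc is a well-known target of that signalling.

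All mice carried AhCre, a Cre recombinase under a Cyp1a promoter that xenobiotics switch on, and all, controls included, received 3 injections of beta-naphthoflavone at 80 mg/kg within 1 day. Livers were taken at day 4, and their RNA was hybridised to 12 arrays, in 4 groups of 3. WT mice were wild-type controls with AhCre, Apc mice were homozygous for a floxed Apc allele, Myc mice for a floxed Myc allele, and ApcMyc mice for both. The labels do not state age, sex or strain. Each array's title carries a code of its own, which no label says is a mouse. A p-value here sets a difference between groups against the spread among these arrays, which may not be the spread among mice. The series title puts the question of whether Myc is needed for what Apc loss does in the liver. Whole-liver RNA was measured, so fewer cells of a type and less RNA per cell cannot be told apart, and nor can loss of Apc in every cell and in part of them.

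The deposited values were scores within each array, from which signals were recovered, quantile normalised and put on a log2(signal + 16) scale. Every value and difference below is on that scale unless a signal is named, and a fold is the antilog of the difference, which understates the change of dim probe sets. Arrays of 1 group correlated at 0.957 to 0.981 over all probe sets. Median signals before normalisation were 35.4 to 45.3 in WT, 42.4 to 53.7 in Apc, 59.5 to 78.9 in Myc and 86.5 to 106.9 in ApcMyc arrays. The titles of the WT and Apc samples are written in one style and those of the Myc and ApcMyc samples in another, and a labelling control, dap (6 probe sets), averaged 7.92 to 8.49 in the first and 4.25 to 4.40 in the second. Any difference in handling that goes with the title style cannot be told apart from Myc deletion. The Myc probe set read 6.56, 5.30 and 6.35 in WT, 8.73, 9.09 and 8.58 in Apc, 4.89, 5.47 and 5.30 in Myc, and 5.37, 5.49 and 5.51 in ApcMyc. The Myc and ApcMyc arrays thus lay far below the Apc arrays and overlapped the WT range, and which part of Myc was deleted is not given in the labels. The lists pair no probe set with the symbol Apc, so Apc itself was not analysed here.

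The members were chosen by their SAM statistics in the authors' lists, which set Apc against WT and set ApcMyc arrays against those of Apc and of WT, so values in these contrasts are given as description. Of the 26 probe sets, 17 were listed as higher and 8 as lower in ApcMyc than WT, 1 (Ube4a) came from ApcMyc against Apc, and 0 came from Apc against WT. In the authors' deposited table the SAM statistic ran from -3.27 for Rnf125 to 2.60 for Usp13 among the 25, and was 5.13 for Ube4a. The nearest members inside the edge of the ApcMyc against WT list, which lay at 1.67 and -1.7 in the authors' deposited table, were Cul7 and Fbxo39 at 1.68 and Psmd6 at -1.73. Probe sets outside the lists carry no symbol here, so the values just outside the edge cannot be given for these families, and members of the families that did not pass the lists are not analysed here. The mean signals of the members ran from 16.1 for Fbxo7 to 1450 for Rnf125 with a median of 137, against a median of 65.0 over all probe sets, and 8 of the 26 lay below that. All 26 entered the tests, since no filter on low values was used.

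Groups did not overlap for 14 of the 26 probe sets between Apc and WT (10 higher, 4 lower in Apc), for 14 between ApcMyc and Apc (9 higher, 5 lower) and for 23 between ApcMyc and WT (15 higher, 8 lower). Over all 32115 probe sets tested, groups did not overlap for 31.5%, 36.4% and 39.9% in the same order, and 15.6% passed limma between Apc and WT. Because these contrasts chose the members, nothing is read from the counts. The tests below use the contrasts that the lists did not, ApcMyc minus Myc, Myc minus WT and the difference between the responses to Apc loss with and without Myc, though each shares arrays with the lists.

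**Figure D1:**
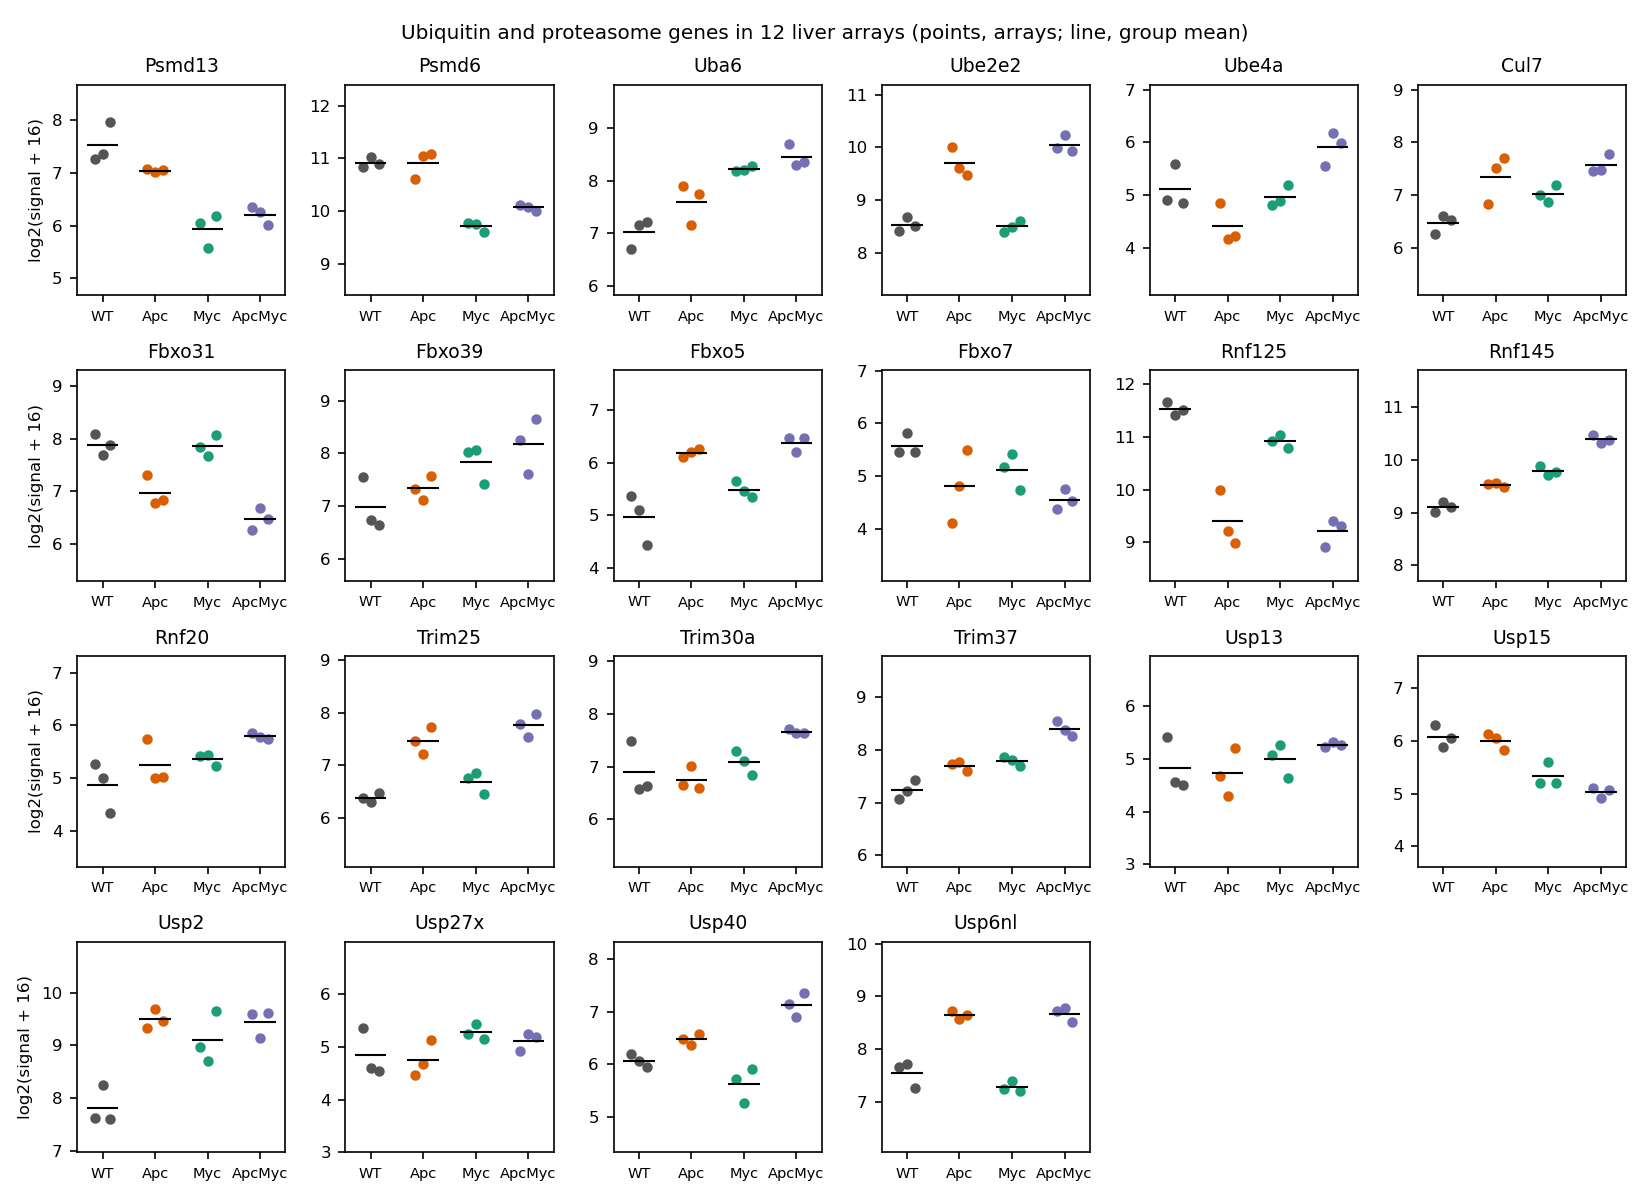
Values of the member genes described, each at its brighter probe set in every array, in log2(signal + 16), with 1 panel per gene and the arrays of WT, Apc, Myc and ApcMyc side by side; each point is 1 array and each bar a group mean. Rnf125 and Fbxo31 sit lower in both groups without Apc, Ube2e2, Usp6nl and Trim25 sit higher in both, and Psmd6 and Psmd13 sit lower in both groups without Myc.

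With Myc deleted, loss of Apc went with rises in genes of the Ube, Fbx, Rnf, Trim and Usp families and with falls in an F-box and a RING gene. In ApcMyc minus Myc, 9 of the 26 probe sets (8 genes) rose, 2 fell and 15 did not pass at an adjusted p of 0.05. The genes that rose were Ube2e2, Usp40, Usp6nl on both its probe sets, Trim25, Ube4a, Fbxo5, Trim37 and Rnf145, and those that fell were Rnf125 and Fbxo31. Over all probe sets 6.64% rose and 6.76% fell in this comparison, and the members' median difference was 0.35 against -0.02 for all probe sets. The count cannot be read as a property of the families, because only listed probe sets have names and all 26 had been listed with the ApcMyc arrays on one side. Of the 17 listed as higher in ApcMyc than WT, 8 rose and 16 had a difference above 0, and of the 8 listed as lower, 2 fell and 6 were below 0. Without Myc replicate 2 the count of calls was 7 in place of 11. With median scaling in place of quantile normalisation the split over all probe sets moved from 49.5% to 33.4% of calls upward.

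Between the Myc and WT groups both proteasome subunits and Usp15 were among those that fell, and Usp2, Uba6, Trim37 and Rnf145 rose. In Myc minus WT, 5 probe sets (4 genes) rose, 5 (4 genes) fell and 16 did not pass, with 4.05% of all probe sets rising and 5.05% falling. The members' median difference was 0.17, against 0.01 for all probe sets. All 8 probe sets listed as lower in ApcMyc than WT were below 0, with 5 of them called. Of the 17 listed as higher, 14 were above 0 and 5 were called. The WT arrays used for that list are subtracted here as well. The choice of members thus favours these signs, and nothing is read from the counts. The count was 5 without Myc replicate 3 or WT replicate 3, and 6 without Myc replicate 1 or WT replicate 2, in place of 10, and 6 with a pseudocount of 1. The median-scaled share of calls upward over all probe sets was 59.6%, against 44.5%. Myc deletion and title style cannot be told apart in any of these calls.

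**Figure D2:**
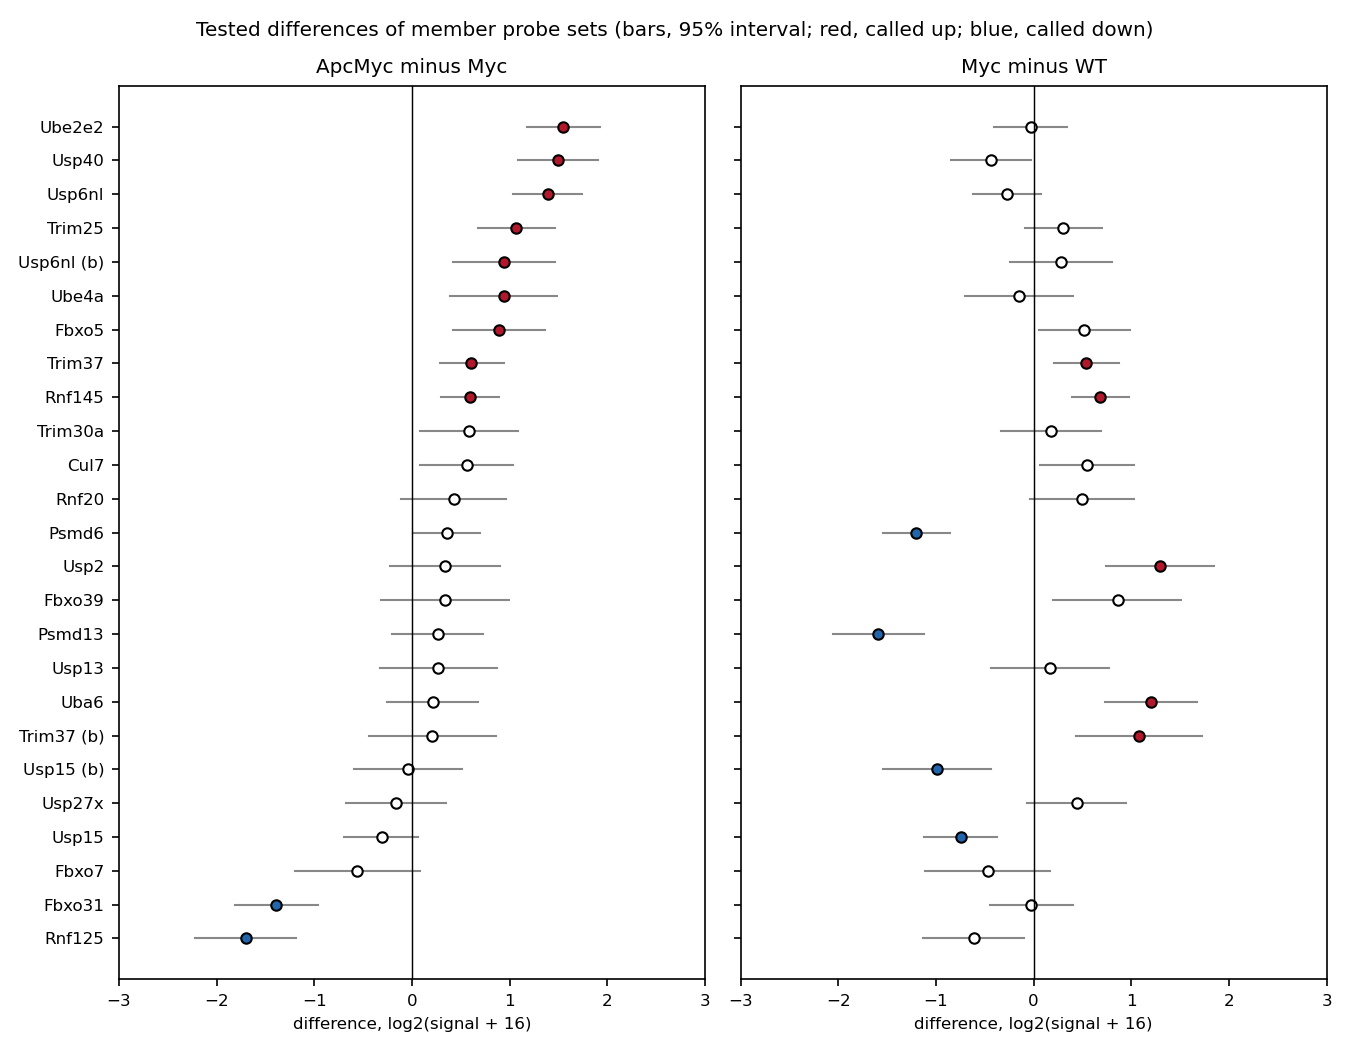
Differences for the member probe sets in ApcMyc minus Myc and in Myc minus WT, in log2(signal + 16), with 95% intervals from limma and filled points for an adjusted p under 0.05; (b) marks the dimmer probe set of a gene with a pair of them. The calls in ApcMyc minus Myc run from -1.7 for Rnf125 to 1.55 for Ube2e2, and those in Myc minus WT from -1.59 for Psmd13 to 1.29 for Usp2.

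Among the enzymes that charge, carry and extend ubiquitin, Ube2e2, an E2, gave the largest rise of any member in ApcMyc minus Myc. Ube2e2 read 8.42, 8.67 and 8.50 in WT, 10, 9.61 and 9.47 in Apc, 8.39, 8.49 and 8.61 in Myc and 9.98, 10.24 and 9.93 in ApcMyc. Every array without Apc lay above every array with it, and Myc status left the ranges overlapping. It rose by 1.55 (2.93-fold, SE 0.172, adjusted p = 0.000145) in ApcMyc minus Myc, beside a difference of 1.16 between Apc and WT, and in Myc minus WT it differed by -0.03 (95% interval -0.41 to 0.34, adjusted p = 0.934). Uba6, an E1 that activates both ubiquitin and the ubiquitin-like protein FAT10, read 6.70, 7.17 and 7.22 in WT, 7.91, 7.16 and 7.74 in Apc, 8.19, 8.21 and 8.29 in Myc and 8.70, 8.30 and 8.35 in ApcMyc. Every array without Myc lay above every array with it. Uba6 rose by 1.20 (2.3-fold, SE 0.215, adjusted p = 0.00602) in Myc minus WT, and its difference in ApcMyc minus Myc was 0.22 (95% interval -0.25 to 0.68, adjusted p = 0.562).

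Ube4a, a U-box E4 enzyme and the member listed for ApcMyc against Apc, read 4.90, 5.59 and 4.84 in WT, 4.85, 4.17 and 4.22 in Apc, 4.81, 4.89 and 5.18 in Myc and 5.54, 6.17 and 5.99 in ApcMyc. It was dim, with the Apc arrays reaching lowest and 2 of the 3 ApcMyc arrays above all others. Its rise of 0.94 (1.92-fold, SE 0.254, adjusted p = 0.029) in ApcMyc minus Myc ended without ApcMyc replicate 2 or 3, or Myc replicate 1 or 2 (adjusted p = 0.0737 to 0.102) and with the deposited scores (adjusted p = 0.18) or a pseudocount of 1 (adjusted p = 0.124). In Myc minus WT it differed by -0.15 (95% interval -0.70 to 0.40, adjusted p = 0.768).

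Among cullin ligase genes, 2 F-box genes passed in opposite directions in ApcMyc minus Myc. Fbxo31, whose product directs cyclin D1 to degradation in human cells, read 8.09, 7.70 and 7.88 in WT, 7.31, 6.78 and 6.84 in Apc, 7.85, 7.67 and 8.07 in Myc and 6.26, 6.69 and 6.47 in ApcMyc. Both groups without Apc lay below both groups with it. It fell by 1.39 (2.62-fold, SE 0.196, adjusted p = 0.000706) in ApcMyc minus Myc, was lower by a difference of -0.91 in Apc than WT, and differed by -0.03 (95% interval -0.45 to 0.40, adjusted p = 0.955) in Myc minus WT. Fbxo5, also known as Emi1, an inhibitor of the anaphase-promoting complex, read 5.37, 5.09 and 4.43 in WT, 6.10, 6.20 and 6.26 in Apc, 5.65, 5.46 and 5.34 in Myc and 6.46, 6.19 and 6.47 in ApcMyc. The arrays without Apc all lay above those with it. Its rise of 0.89 (1.85-fold, SE 0.216, adjusted p = 0.0173) in ApcMyc minus Myc ended without ApcMyc replicate 1, or Myc replicate 2 or 3 (adjusted p = 0.0583 to 0.067) and with the deposited scores (adjusted p = 0.17) or a pseudocount of 1 (adjusted p = 0.0998).

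The remaining members of these families passed in neither tested step. Cul7, the scaffold of a ligase that works with Fbxw8, read 6.26, 6.60 and 6.52 in WT, 6.82, 7.51 and 7.71 in Apc, 6.99, 6.86 and 7.18 in Myc and 7.46, 7.48 and 7.77 in ApcMyc. Its WT arrays were the lowest and its ApcMyc arrays overlapped the Apc arrays, and the difference in ApcMyc minus Myc was 0.56 (95% interval 0.08 to 1.04, adjusted p = 0.119) with no overlap between the groups. Fbxo39, an F-box protein, read 7.55, 6.73 and 6.65 in WT, 7.32, 7.12 and 7.57 in Apc, 8.02, 8.06 and 7.42 in Myc and 8.25, 7.61 and 8.66 in ApcMyc. WT and Apc overlapped, as did Myc and ApcMyc, and in Myc minus WT it differed by 0.86 (95% interval 0.20 to 1.51, adjusted p = 0.0967), which passed with median scaling (adjusted p = 0.0496) and without WT replicate 1 (adjusted p = 0.0384). Fbxo7, an F-box protein with a role in mitophagy and the dimmest member, read 5.46, 5.81 and 5.46 in WT, 4.10, 4.82 and 5.49 in Apc, 5.17, 5.42 and 4.73 in Myc and 4.37, 4.75 and 4.52 in ApcMyc. Its Apc arrays reached from below every other array up into the WT range. Apc replicate 1 was at the floor signal of 1, and Fbxo7 was the 1 member at the floor in any array. For Fbxo7, ApcMyc minus Myc gave -0.56 (95% interval -1.20 to 0.08, adjusted p = 0.245).

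Rnf125, a RING ligase that acts on RIG-I and other RNA sensors in human cells, was the brightest member and the one lowered most in ApcMyc minus Myc. It read 11.66, 11.42 and 11.52 in WT, 10, 9.22 and 8.99 in Apc, 10.92, 11.04 and 10.80 in Myc and 8.92, 9.41 and 9.31 in ApcMyc. Both groups without Apc lay below both groups with it. Rnf125 fell by 1.7 (3.26-fold, SE 0.236, adjusted p = 0.000628) in ApcMyc minus Myc and was lower by a difference of -2.13 in Apc than WT. In Myc minus WT it differed by -0.61 (95% interval -1.13 to -0.10, adjusted p = 0.124), with no overlap, and passed when only that pair of groups was fitted (adjusted p = 0.0442). Rnf145, a sterol-responsive ligase of the endoplasmic reticulum, read 9.01, 9.21 and 9.10 in WT, 9.54, 9.56 and 9.48 in Apc, 9.88, 9.72 and 9.78 in Myc and 10.47, 10.32 and 10.38 in ApcMyc. The groups stood in the order WT, Apc, Myc and ApcMyc with no overlap between neighbours. It rose by 0.68 (1.61-fold, SE 0.135, adjusted p = 0.00974) in Myc minus WT and by 0.59 (1.51-fold, SE 0.135, adjusted p = 0.0123) in ApcMyc minus Myc, and the second call ended without Myc replicate 2 (adjusted p = 0.0554) and with median scaling (adjusted p = 0.248). Rnf20, part of the ligase that ubiquitinates histone H2B, read 5.27, 4.99 and 4.33 in WT, 5.73, 4.99 and 5.02 in Apc, 5.41, 5.44 and 5.23 in Myc and 5.85, 5.78 and 5.73 in ApcMyc. The ApcMyc arrays were the tightest and lay at or above all others, and neither step passed, with 0.43 (95% interval -0.11 to 0.96, adjusted p = 0.292) in ApcMyc minus Myc and 0.50 (95% interval -0.04 to 1.03, adjusted p = 0.231) in Myc minus WT.

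Of the TRIM ligases, Trim25, which ubiquitinates RIG-I and is induced by interferon and oestrogen, read 6.39, 6.31 and 6.47 in WT, 7.46, 7.21 and 7.73 in Apc, 6.77, 6.85 and 6.45 in Myc and 7.78, 7.54 and 7.97 in ApcMyc. Every array without Apc lay above every array with it. It rose by 1.07 (2.1-fold, SE 0.182, adjusted p = 0.00237) in ApcMyc minus Myc, beside 1.07 between Apc and WT, and Myc minus WT gave 0.30 (95% interval -0.09 to 0.70, adjusted p = 0.331). Trim37, which acts at peroxisomes and centrosomes, read on its brighter probe set 7.08, 7.23 and 7.44 in WT, 7.74, 7.77 and 7.61 in Apc, 7.86, 7.81 and 7.69 in Myc and 8.55, 8.38 and 8.27 in ApcMyc. WT was lowest, ApcMyc highest, and Apc and Myc overlapped. On that probe set it rose by 0.61 (1.53-fold, SE 0.152, adjusted p = 0.0185) in ApcMyc minus Myc and by 0.54 (1.45-fold, SE 0.152, adjusted p = 0.0446) in Myc minus WT. The first call ended without ApcMyc replicate 1, or Myc replicate 2 or 3 (adjusted p = 0.0564 to 0.074) and with median scaling (adjusted p = 0.0984), and the second without any 1 of the 6 arrays (adjusted p = 0.051 to 0.135), with a pseudocount of 1 (adjusted p = 0.0513) or with the pair of groups fitted alone (adjusted p = 0.0698). The dimmer Trim37 probe set read 6.78, 6.15 and 5.53 in WT, 7.39, 7.10 and 6.38 in Apc, 7.18, 7.16 and 7.35 in Myc and 7.53, 7.50 and 7.29 in ApcMyc. The WT arrays were the most widely spread and overlapped the Apc arrays, while Myc and ApcMyc overlapped each other. It rose by 1.08 (2.11-fold, SE 0.299, adjusted p = 0.0426) in Myc minus WT, a call that ended without any 1 of 5 of the 6 arrays, all but WT replicate 1 (adjusted p = 0.0962 to 0.143), with the deposited scores (adjusted p = 0.0617), a pseudocount of 1 (adjusted p = 0.0755) or the pair of groups alone (adjusted p = 0.0673), and its difference in ApcMyc minus Myc was 0.21 (95% interval -0.44 to 0.86, adjusted p = 0.707).

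Trim30a, an interferon-induced mouse gene with close relatives beside it in the genome that the probe set may also read, gave 7.49, 6.58 and 6.63 in WT, 6.65, 7.02 and 6.60 in Apc, 7.30, 7.11 and 6.84 in Myc and 7.72, 7.64 and 7.64 in ApcMyc. WT replicate 1 stood apart from the other WT arrays, and the ApcMyc arrays lay above every other array. The difference in ApcMyc minus Myc was 0.58 (95% interval 0.08 to 1.09, adjusted p = 0.124), with no overlap, and that in Myc minus WT was 0.18 (95% interval -0.33 to 0.69, adjusted p = 0.676).

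The 2 proteasome genes encode lid subunits of the regulatory particle, and both fell in Myc minus WT. Psmd6 read 10.83, 11.02 and 10.90 in WT, 10.61, 11.04 and 11.08 in Apc, 9.77, 9.76 and 9.61 in Myc and 10.12, 10.08 and 10.01 in ApcMyc. The arrays with Myc all lay above those without it, and the Apc and WT means were 10.91 and 10.92. Psmd6 fell by 1.20 (2.3-fold, SE 0.158, adjusted p = 0.00118) in Myc minus WT, and in ApcMyc minus Myc it differed by 0.36 (95% interval 0.01 to 0.70, adjusted p = 0.164), with the ApcMyc arrays above the Myc arrays. Psmd13 read 7.26, 7.36 and 7.96 in WT, 7.07, 7.02 and 7.05 in Apc, 6.06, 5.57 and 6.19 in Myc and 6.36, 6.26 and 6.01 in ApcMyc. Again every array with Myc lay above every array without it. Psmd13 fell by 1.59 (3-fold, SE 0.215, adjusted p = 0.0015) in Myc minus WT and differed by 0.27 (95% interval -0.20 to 0.73, adjusted p = 0.47) in ApcMyc minus Myc. Both subunits were lower in ApcMyc than Apc, by differences of -0.84 and -0.84, in a contrast that the rule also used. Before normalisation the Psmd6 signals overlapped, at 1354.5, 1583.4 and 991.2 in WT and 1248.7, 947.2 and 782.5 in Myc. Those of Psmd13 did not, at 94.5, 104.7 and 118.9 in WT and 62.5, 28.2 and 56.5 in Myc. Every run used values scaled within or between arrays, so the size of these falls depends on that scaling.

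Among the deubiquitinating enzymes, Usp40 read 6.20, 6.07 and 5.95 in WT, 6.49, 6.37 and 6.58 in Apc, 5.72, 5.26 and 5.91 in Myc and 7.14, 6.90 and 7.35 in ApcMyc. The Myc arrays were lowest and ApcMyc arrays highest. Usp40 rose by 1.5 (2.83-fold, SE 0.19, adjusted p = 0.000355) in ApcMyc minus Myc, beside 0.41 between Apc and WT, and Myc minus WT gave -0.44 (95% interval -0.85 to -0.03, adjusted p = 0.168). Usp2, a deubiquitinating enzyme under circadian control in liver, read 7.62, 8.24 and 7.60 in WT, 9.34, 9.69 and 9.46 in Apc, 8.97, 8.71 and 9.65 in Myc and 9.59, 9.14 and 9.62 in ApcMyc. WT lay below every other array, and the other 3 groups overlapped. It rose by 1.29 (2.45-fold, SE 0.257, adjusted p = 0.01) in Myc minus WT and differed by 0.34 (95% interval -0.22 to 0.90, adjusted p = 0.434) in ApcMyc minus Myc, while Apc lay 1.68 above WT.

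Usp15, which removes ubiquitin from several signalling proteins, had a pair of probe sets. The brighter read 6.31, 5.88 and 6.06 in WT, 6.13, 6.05 and 5.83 in Apc, 5.20, 5.60 and 5.21 in Myc and 5.10, 4.92 and 5.06 in ApcMyc. The dimmer read 6.14, 5.86 and 6.11 in WT, 5.96, 5.77 and 4.89 in Apc, 5.36, 4.87 and 4.92 in Myc and 5.17, 4.83 and 5.02 in ApcMyc. On the brighter, every array with Myc lay above every array without it, and on the dimmer only Apc replicate 3 broke that order. Usp15 fell in Myc minus WT by 0.74 (1.67-fold, SE 0.173, adjusted p = 0.021) on the brighter and by 0.99 (1.98-fold, SE 0.253, adjusted p = 0.0314) on the dimmer. The call on the brighter ended without Myc replicate 1 or 3, or WT replicate 1 or 3 (adjusted p = 0.056 to 0.0803) and with the pair of groups fitted alone (adjusted p = 0.0512). That on the dimmer ended without any 1 of 5 of the 6 arrays, all but Myc replicate 1 (adjusted p = 0.0585 to 0.111), with the deposited scores (adjusted p = 0.0516) or a pseudocount of 1 (adjusted p = 0.0594). In ApcMyc minus Myc the differences were -0.31 (95% interval -0.69 to 0.06, adjusted p = 0.269) and -0.04 (95% interval -0.59 to 0.51, adjusted p = 0.942).

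Usp6nl, the Rab GTPase-activating protein, read on its brighter probe set 7.66, 7.72 and 7.26 in WT, 8.71, 8.57 and 8.65 in Apc, 7.23, 7.39 and 7.20 in Myc and 8.72, 8.78 and 8.51 in ApcMyc. Every array without Apc lay above every array with it. It rose by 1.39 (2.63-fold, SE 0.162, adjusted p = 0.000194) in ApcMyc minus Myc, beside 1.10 between Apc and WT, and Myc minus WT gave -0.27 (95% interval -0.62 to 0.08, adjusted p = 0.328). The dimmer probe set read 7.36, 6.95 and 6.77 in WT, 8.28, 8.18 and 7.57 in Apc, 6.92, 7.69 and 7.32 in Myc and 8.27, 8.23 and 8.24 in ApcMyc. On it Apc replicate 3 lay within the Myc range, and the ApcMyc arrays lay above all Myc arrays. It rose by 0.94 (1.92-fold, SE 0.239, adjusted p = 0.0217) in ApcMyc minus Myc, a call that ended without ApcMyc replicate 1 or 2, or Myc replicate 1 or 3 (adjusted p = 0.0554 to 0.0907) and with the deposited scores (adjusted p = 0.0502). Usp13, a deubiquitinating enzyme with a role in autophagy, read 5.42, 4.56 and 4.50 in WT, 4.67, 4.30 and 5.20 in Apc, 5.07, 5.27 and 4.64 in Myc and 5.22, 5.32 and 5.27 in ApcMyc. The WT range took in the ApcMyc arrays, which lay just above the Apc arrays, and the differences were 0.27 (95% interval -0.33 to 0.87, adjusted p = 0.575) in ApcMyc minus Myc and 0.17 (95% interval -0.44 to 0.77, adjusted p = 0.759) in Myc minus WT. Usp27x, an X-linked deubiquitinating enzyme, lay between 4.47 and 5.43 over the 12 arrays and passed in neither step, with -0.16 (95% interval -0.67 to 0.35, adjusted p = 0.723) and 0.44 (95% interval -0.07 to 0.95, adjusted p = 0.273) in the same order.

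Of the 22 calls made on members, 11 held under every alternative run. These were Ube2e2, Usp40, Usp6nl on its brighter probe set, Trim25, Rnf125 and Fbxo31 in ApcMyc minus Myc, and Psmd6, Psmd13, Uba6, Usp2 and Rnf145 in Myc minus WT.

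Ube4a was the member called for a response to Apc loss that differed with Myc status. Its Apc and WT arrays overlapped. Before normalisation its signals were 9.5, 23.7 and 8.0 in WT and 8.8, 1.4 and 2.0 in Apc, with 1.4 and 2.0 near the floor of 1. The response was -0.69 in Apc minus WT and 0.94 in ApcMyc minus Myc, a difference of 1.63 (SE 0.36, 95% interval 0.85 to 2.41, adjusted p = 0.0386). This made 1 call among 26, or 3.85%, against 2.32% of all probe sets, and it ended without any 1 of 9 of the 12 arrays, all but Apc replicate 1, ApcMyc replicate 1 and WT replicate 1 (adjusted p = 0.0524 to 0.0927) and with the deposited scores (adjusted p = 0.0975) or a pseudocount of 1 (adjusted p = 0.079). Ube4a had been listed for ApcMyc against Apc, which are 2 of the 4 groups in this term, so the value is no independent support. Usp2 and Usp40 came next and did not pass. Usp2 stood at -1.34 (95% interval -2.13 to -0.55, adjusted p = 0.075), and passed with median scaling (adjusted p = 0.0237), a pseudocount of 64 (adjusted p = 0.0414), dim probe sets left out (adjusted p = 0.0395) or an intensity trend in the variances (adjusted p = 0.0353). Usp40 stood at 1.09 (95% interval 0.51 to 1.67, adjusted p = 0.0563), and passed with median scaling (adjusted p = 0.0471), a pseudocount of 64 (adjusted p = 0.0294) or dim probe sets left out (adjusted p = 0.0232).

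The responses to Apc loss with Myc intact (Apc minus WT) and deleted (ApcMyc minus Myc) share no array. Of the 26 member probe sets 21, or 80.8%, had the same sign in both, with a correlation of 0.748 over the 26 probe sets, which share arrays and include pairs from 1 gene. Over all 32115 probe sets the share was 60.4% and the correlation 0.522. The WT arrays are subtracted in the first and the ApcMyc arrays added in the second, and 25 members were listed for a difference between those groups, so the choice of members favours a shared sign and the values are given as description. Fbxo5, Ube2e2, Usp6nl and Trim25 stood high in both and Rnf125 and Fbxo31 low in both, whereas Ube4a lay below 0 with Myc intact and above 0 with Myc deleted.

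**Figure D3:**
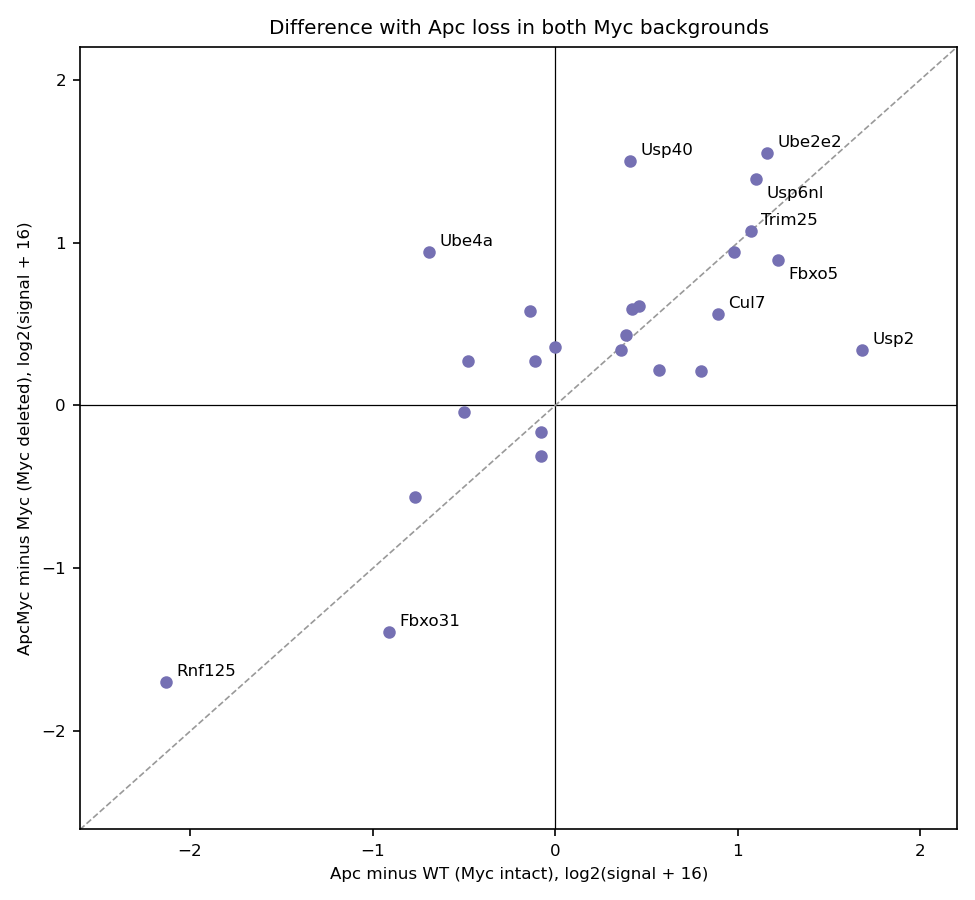
Differences with Apc loss when Myc was intact (x axis, Apc minus WT) and deleted (y axis, ApcMyc minus Myc), both in log2(signal + 16); each point is 1 member probe set, named at the brighter of a gene, and the dashed line marks equal differences. Rnf125 and Fbxo31 lie at lower left, Ube2e2, Usp6nl, Trim25 and Fbxo5 at upper right, and Ube4a at -0.69 and 0.94 at upper left.

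The windows before the gene start are shown for the genes that passed in ApcMyc minus Myc, did not overlap in the same direction between Apc and WT and differed by over 0.8 in both, since these moved together with Apc loss in either Myc state. They are 250 bases each, 5′ to 3′ on the gene's strand, from RefSeq on GRCm38.p6. RefSeq gave 2 windows for Ube2e2 and 2 for Usp6nl, and for these genes the window with the most motif matches is shown. Rnf125 met the same conditions, but no window was at hand for it, so it was not searched for motifs. Capitals mark a match to 1 of the motifs searched on both strands: CACGTG (the E-box that MYC binds), CTTTGAT and CTTTGAA (forms of the TCF/LEF site) and TGACNNNGC (the core of the antioxidant response element). The windows lie at chr14:18893414-18893663 (minus strand) for Ube2e2, chr2:6322507-6322756 (plus strand) for Usp6nl, chr11:88999153-88999402 (plus strand) for Trim25, chr10:5805466-5805715 (minus strand) for Fbxo5 and chr8:121578807-121579056 (minus strand) for Fbxo31.
Ube2e2: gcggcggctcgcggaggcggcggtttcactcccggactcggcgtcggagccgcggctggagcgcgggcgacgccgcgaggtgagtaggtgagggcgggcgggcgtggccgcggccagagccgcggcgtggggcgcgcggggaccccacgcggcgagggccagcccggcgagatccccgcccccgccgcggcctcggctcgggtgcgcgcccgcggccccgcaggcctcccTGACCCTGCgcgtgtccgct
Usp6nl: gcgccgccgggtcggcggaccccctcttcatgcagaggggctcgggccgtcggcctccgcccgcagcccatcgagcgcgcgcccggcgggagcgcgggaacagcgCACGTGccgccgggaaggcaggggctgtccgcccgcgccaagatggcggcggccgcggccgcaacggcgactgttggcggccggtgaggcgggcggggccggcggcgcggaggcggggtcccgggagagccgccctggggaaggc
Trim25: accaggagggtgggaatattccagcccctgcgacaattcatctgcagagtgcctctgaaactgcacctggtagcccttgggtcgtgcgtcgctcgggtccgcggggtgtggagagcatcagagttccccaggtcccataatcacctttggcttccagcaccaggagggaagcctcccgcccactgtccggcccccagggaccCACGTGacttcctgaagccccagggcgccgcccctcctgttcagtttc
Fbxo5: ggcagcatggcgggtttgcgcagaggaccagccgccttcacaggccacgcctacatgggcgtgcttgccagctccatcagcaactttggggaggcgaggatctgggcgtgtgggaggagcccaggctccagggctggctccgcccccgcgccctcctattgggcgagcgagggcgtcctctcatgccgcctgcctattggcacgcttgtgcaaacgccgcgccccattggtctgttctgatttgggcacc
Fbxo31: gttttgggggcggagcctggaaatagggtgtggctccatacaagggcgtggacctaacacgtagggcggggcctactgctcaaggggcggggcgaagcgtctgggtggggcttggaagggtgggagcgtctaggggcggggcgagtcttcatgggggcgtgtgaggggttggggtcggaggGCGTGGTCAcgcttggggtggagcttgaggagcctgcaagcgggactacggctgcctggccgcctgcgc

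Of the windows shown, those of Usp6nl and Trim25 held the E-box, those of Ube2e2 and Fbxo31 the antioxidant response core, and that of Fbxo5 no match. For Ube2e2 and Usp6nl the window was chosen for its matches. RefSeq gave 26 windows for 20 of the 23 member genes. CACGTG was found in 3 of them (11.5%, in Rnf145, Trim25 and Usp6nl), against 6.02% of all 32851 windows. CTTTGAT was found in 0 of the 26, against 3.21%, and CTTTGAA in 2 (7.69%, in Ube4a and Usp40), against 4.46%. TGACNNNGC was found in 3 (11.5%, in Fbxo31, Ube2e2 and Usp13), against 10.2%. These are matches of letters in a short window and show no binding.

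Other genes of the pathway came from a list of 206, of which 30 genes on 35 probe sets carry a name in the authors' lists. In ApcMyc minus Myc 6 probe sets (5 genes) rose, 10 (8 genes) fell and 19 did not pass, so that 45.7% were called, where 6.64% of all probe sets rose and 6.76% fell, with a median of -0.08 against -0.02 for all probe sets. Cdc20, the activator of the anaphase-promoting complex that Emi1 inhibits, rose by 2.51 (adjusted p = 0.00428) and 2.13 (adjusted p = 0.0343) on a pair of probe sets, and the cullin adaptor Kctd9 rose by 0.66 (adjusted p = 0.0367). The cullin adaptors Spop and Klhl21 fell by 1.21 (adjusted p = 0.0028) and 1.11 (adjusted p = 0.000884), and the autophagy gene Atg5 fell by 1.18 (adjusted p = 0.00558). The smaller Cdc20 call ended without any 1 of 5 of the 6 arrays, all but ApcMyc replicate 2 (adjusted p = 0.0775 to 0.131), and with the deposited scores (adjusted p = 0.0595), a pseudocount of 1 (adjusted p = 0.0574) or the pair of groups alone (adjusted p = 0.0558). The Kctd9 call ended without any 1 of the 6 (adjusted p = 0.058 to 0.117), and with median scaling (adjusted p = 0.101), the deposited scores (adjusted p = 0.0841) or a pseudocount of 1 (adjusted p = 0.06). The count was 10 without ApcMyc replicate 1 or Myc replicate 1 or 3, and 9 without Myc replicate 2, in place of 16.

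In Myc minus WT 7 probe sets of this list rose, 7 (6 genes) fell and 21 did not pass, so that 40.0% were called, where 4.05% of all probe sets rose and 5.05% fell, with a median of -0.42 against 0.01. The cullin ligase RING subunit Rbx1 rose by 1.59 (adjusted p = 0.000394), the shuttle factor Rad23b by 1.40 (adjusted p = 0.000505), the ubiquitin-like autophagy protein gene Atg12 by 1.0 (adjusted p = 0.00594) and the N-recognin ligase Ubr1 by 0.67 (adjusted p = 0.0102). Sem1, a small proteasome lid subunit, fell by 1.22 (adjusted p = 0.00113), as Psmd6 and Psmd13 did. Os9, a lectin of degradation from the endoplasmic reticulum, fell by 1.19 (adjusted p = 0.0158), and the cullin adaptors Klhl24 and Asb13 fell by 1.07 (adjusted p = 0.0133) and 1.02 (adjusted p = 0.0119). Calls ended for Os9 without Myc replicate 3, or WT replicate 2 or 3 (adjusted p = 0.061 to 0.0657), for Klhl24 without Myc replicate 1 or WT replicate 2 (adjusted p = 0.0506 to 0.0573) and for Asb13 without Myc replicate 2 or WT replicate 2 (adjusted p = 0.052 to 0.0521). The count was 7 without Myc replicate 2, 8 without Myc replicate 3 or WT replicate 3, and 6 without WT replicate 2, in place of 14. These genes too have names only because a list held them, so nothing is read from their counts.

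Summed signals of some marker lists for liver cell types differed between the groups. Within the macrophage, endothelial and red cell lists, genes did not all move together in ApcMyc minus Myc. In Myc minus WT every macrophage (0.26 to 1.53) and endothelial (0.1 to 1.11) probe set had a difference above 0, and Nkg7 differed by 1.12. The neutrophil and red cell genes differed in sign in that step, and the hepatocyte genes were below 0 in both steps. The hepatocyte genes Apoa1 and Serpina1a, 2 of 10 in that list with a name, summed to signals of 26200 to 27100 in WT, 20700 to 22400 in Apc, 22100 to 22500 in Myc and 13100 to 16500 in ApcMyc. Macrophage genes, 4 of 10 with a name, summed to 553 to 1420 in WT, 605 to 978 in Apc, 1650 to 2430 in Myc and 2020 to 2720 in ApcMyc, and 1 of their probe sets was at the lowest signal in some array. In ApcMyc minus Myc, Marco differed by 1.13 and 1.39 on a pair of probe sets and Cd68 by 0.75. Lyz2 differed by -0.13 and Ccr2 by -0.09. Endothelial genes, 4 of 8, summed to 296 to 730 in WT, 474 to 779 in Apc, 624 to 647 in Myc and 1430 to 1610 in ApcMyc. Their differences in ApcMyc minus Myc were 1.71 and 1.75 on a pair of Lyve1 probe sets, 0.8 for Kdr, 0.1 for Cdh5 and -0.41 for Pecam1. Nkg7, the 1 named gene of 8 lymphocyte markers, had signals of 9.38 to 41.4 in WT, 14.9 to 27.2 in Apc, 58.1 to 80.4 in Myc and 49.3 to 59.0 in ApcMyc. Neutrophil genes, 2 of 6, gave no call in either tested step, and of 4 named red cell genes of 7, 1 rose and 3 fell in ApcMyc minus Myc. None of the 5 cholangiocyte or 7 stellate markers has a name in the lists. Of these lists, 2 macrophage, 1 endothelial and 1 lymphocyte probe set rose in Myc minus WT, where 4.05% of all probe sets rose. In ApcMyc minus Myc 2 endothelial rose and 1 hepatocyte fell, where 6.64% of all probe sets rose and 6.76% fell. Markers have a name only because a list held them, so nothing is read from these counts or sums. The part of cell makeup in the values of the members was not tested.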

How the data were processed

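Liver RNA was measured on 12 Affymetrix-type arrays, and the arrays were grouped by the labels. Per the labels' protocols, Trizol and then RNeasy columns were used for extraction, and an Enzo BioArray kit for labelling. For the array type and scanner software, the sources used here give nothing. The values the authors deposited are scores, close to the log signal of each array centred and divided by its spread, as worked out from the values. Their means over the deposited probe sets ran from -0.0249 to -0.00495 and their SDs from 1.01 to 1.05. Their steps matched a signal grid of 0.1 with a floor of 1, within 0.01 for 100% of signals below 1000 in each array, and this gave the signals. The plan had taken the files to hold log2 values.

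Signals of 32176 probe sets were quantile normalised, 16 was added and log2 taken. In limma 3.58.1 (R 4.3.3), 4 group means were fitted to each of 32115 probe sets, leaving out 61 controls, with two-sided p-values and the Benjamini-Hochberg adjustment over all probe sets of a comparison. A call is an adjusted p under 0.05. The number of arrays limits the precision. The fit was tested on simulated data. Promoter and figure work used Python 3.11.15, NumPy 2.4.6, pandas 2.3.3 and matplotlib 3.10.9.

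The members, gene lists and tests were chosen with earlier results of these data known. Values in every array are given, per family, for up to 5 genes with the largest range of group means and for genes called in the interaction, each at its brightest probe set, with second probe sets added where a result turns on them. Of the other pathway genes, up to 4 with the smallest p in each direction are named, counting probe sets. Replicate numbers shared by WT and Apc titles were not used as pairs. The deviations of same-numbered arrays from their group means correlated at 0.0627, 0.00557 and -0.0122, which cannot show whether the samples were paired. Alternatives changed the scaling, pseudocount, filter, variance model, groups fitted and arrays used. Probe sets with several symbols were left out of the members. A few genes that these rules select enter the counts and are not reported here by name.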

Additional observations from a re-analysis of the deposited data

Results flagged for a closer look

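Ube4a, the U-box chain-elongation enzyme, was called for a response to Apc loss that differed with Myc status. The response with Myc deleted less that with Myc intact was 1.63 on the log2(signal + 16) scale (limma, SE 0.36, adjusted p = 0.0386). The call rests on a dim probe set, with signals of 1.4 and 2.0 in Apc replicates 2 and 3, near the floor of 1. It ended without any 1 of 9 of the 12 arrays. Ube4a had been listed for ApcMyc against Apc, groups that are part of this term, so the value is no independent support.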

How the results depend on the processing

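No called result changed sign under any alternative, and of 22 calls on members 11 held everywhere. Of the results on genes reported by name, under the alternatives run, 1530 kept their side of the threshold with no turn of sign, 94 lost a call, 19 gained one and 46 turned sign. The 46 turns came from 16 results that passed neither before nor after, with a lowest adjusted p of 0.209. Among members, 10 were called in Myc minus WT, and a pseudocount of 1 gave 6. In the interaction the 1 call became 3 with median scaling or a pseudocount of 64, and 2 with dim probe sets left out or an intensity trend. It became 0 by limma with the deposited scores or a pseudocount of 1, with 4 of 26 at an unadjusted p under 0.05 in each. Leaving out 1 array gave 7 to 10 calls on members in ApcMyc minus Myc, 5 to 7 in Myc minus WT and 0 to 1 in the interaction. For the other pathway genes it gave 9 to 12 and 6 to 15, and for all probe sets in Apc minus WT 3333 to 4685 in place of 4996. Over all probe sets median scaling moved calls upward and downward in ApcMyc minus Myc from 2131 and 2171 to 1759 and 3511, in Myc minus WT from 1302 and 1623 to 2251 and 1523, and in the interaction from 386 and 358 to 402 and 805. The cause was not tested.

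For Apc minus WT, 4996 probe sets passed with 4 groups fitted, 3151 with the pair of groups alone and 2161 with the replicate block added to that fit. Whether the replicate numbers pair the samples cannot be told from these values, and the main fit did not use them as pairs. The median signal of the member probe sets was 137, against 65.0 over all probe sets, and 8 members lay below that. A fold of a dim probe set is understated by the pseudocount.

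With median scaling, Usp15 (dimmer probe set) gave 0.04 for -0.04 and Rbx1 gave -0.18 for 0.33 in ApcMyc minus Myc, and Fbxo31 gave 0.15 for -0.03 and Ube2e2 gave 0.17 for -0.03 in Myc minus WT, and Rnf145 gave -0.20 for 0.18, Trim37 gave -0.07 for 0.15, Usp27x gave 0.01 for -0.08, Atg12 gave -0.11 for 0.15, Rad23b gave -0.12 for 0.32 and Rbx1 gave -0.28 for 0.26 in the interaction. With the deposited scores, Fbxo31 gave 0.03 for -0.03 and Ube2e2 gave 0.02 for -0.03 in Myc minus WT, and Rnf20 gave -0.13 for 0.04 and Sem1 gave 0.02 for -0.03 in the interaction. With a pseudocount of 1, Rnf20 gave -0.20 for 0.04 in the interaction. With a pseudocount of 64, Fbxo39 gave 0.03 for -0.02 in the interaction. In ApcMyc minus Myc, Usp15 (dimmer probe set) ran from -0.13 to 0.11 with 1 array left out. In Myc minus WT, Fbxo31 ran from -0.13 to 0.08, Ube2e2 ran from -0.09 to 0.04 and Ube4a ran from -0.29 to 0.09 with 1 array left out. In the interaction, Fbxo39 ran from -0.31 to 0.26, Fbxo7 ran from -0.14 to 0.56, Rnf20 ran from -0.17 to 0.31, Sem1 ran from -0.16 to 0.08, Usp27x ran from -0.34 to 0.11 and Usp6nl (dimmer probe set) ran from -0.26 to 0.15 with 1 array left out.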

Other observations

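Probe sets that the lists pair with several symbols were not members, and 2 of them name a gene of these families. The probe set for LOC100048346 and Usp18, the latter an interferon-induced protease for the ubiquitin-like protein ISG15, read 9.59, 8.89 and 8.66 in WT, 11.62, 11.18 and 10.76 in Apc, 8.34, 8.73 and 8.43 in Myc, and 11.93, 11.32 and 11.67 in ApcMyc, on the log2(signal + 16) scale. Its difference was 2.14 in Apc minus WT and 3.14 in ApcMyc minus Myc, and both groups without Apc lay above both groups with it. The values are given without a test, because the probe set was chosen after its values were seen and may measure either locus. The probe set for LOC240657 and Psmc1, a proteasome ATPase, differed by -0.44 in Apc minus WT and by 0.27 in ApcMyc minus Myc, at values between 4.10 and 5.07. In Myc minus WT, where Psmd6 and Psmd13 fell, it differed by 0.09.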
